A study of Mus musculus with 6 samples.

Results

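The MHC class II presentation genes were examined in the aortic valve of control mice and of mice with a constitutively active Acvr1 receptor. The group was given as a list of 10 gene symbols, H2-Aa, H2-Ab1, H2-Eb1, Cd74, H2-DMa, H2-DMb1, H2-DMb2, H2-Oa, H2-Ob and Ciita, and all 10 were found among the 23107 genes of the count matrix. The RNA-Seq compared 3 control with 3 mutant libraries of aortic valve from outbred mice, all 4 months old. The mutants, caAcvr1:Nfatc1Cre, carried a Cre-dependent caAcvr1 transgene together with Cre knocked into the Nfatc1 locus, which recombines in the endocardium, its descendants and cells where the leaflet meets the wall. The controls are labelled wild type, and in the study's breeding a control could carry Nfatc1Cre alone, the caAcvr1 transgene alone or neither. Neither the sex of the mice nor the number of mice behind a library is stated, so the tests measure the spread between these libraries, which may be partly technical. No class II gene differed between mutants and controls beyond that spread. Group means differed by at most 1.46-fold, whereas the 3 controls alone spanned 2.09-fold to 5.23-fold. The 6 genes with the highest counts, picked after their values were seen, moved together from library to library.

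MHC class II molecules sit on the surface of antigen-presenting cells, that is, dendritic cells, B cells and activated macrophages, and show peptides from engulfed proteins to helper T cells. The invariant chain holds the newly made molecule until it reaches the endosome, where the groove is cleared and loaded with peptide. Transcription of nearly the whole set depends on a single coactivator, CIITA, which is recruited by the factors bound to a conserved pair of promoter elements, the X and Y boxes. In heart valves, class II is known from resident macrophages and dendritic cells, and its expression rises with interferon-gamma.

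The classical chains come from H2-Aa, H2-Ab1 and H2-Eb1, which code for the I-A alpha, I-A beta and I-E beta chains. On mouse chromosome 17 (GRCm38, the assembly also called mm10) they lie from 34282744 to 34287823, from 34257689 to 34269419 and from 34305867 to 34316674. H2-DMa (34119541 to 34139101), H2-DMb1 (34153072 to 34160230) and H2-DMb2 (34143307 to 34151555), again on chromosome 17, code for the chains of H2-M, the endosomal catalyst of peptide loading. H2-Oa (34092340 to 34095234) and H2-Ob (34238903 to 34254414) on the same chromosome code for H2-O, which restrains H2-M and is best known from B cells. Ciita, the coactivator, lies on chromosome 16 from 10480059 to 10528418. Thus 8 of the 10 genes fall between 34092340 and 34316674 of chromosome 17.

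The promoters are shown because these genes are read as a coregulated set. The RefSeq promoter table (GRCm38.p6, 250 bases before to 50 bases after each transcript start) held a promoter for 7 of the 10 genes, and H2-Ab1, Cd74 and Ciita had no entry. TGATTGG, the core of a Y box, was found in 6 of the 7. AACNNATGA, part of an X box, was found before it in 4. Both patterns were written after these promoters had been read and were searched on both strands. The 77-base windows below run 5′ to 3′ on the strand of the gene, with matches in capitals.
H2-Aa, chr17:34287857-34287933, minus strand: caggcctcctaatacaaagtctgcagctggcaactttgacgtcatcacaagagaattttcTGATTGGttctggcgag
H2-Eb1, chr17:34305746-34305822, plus strand: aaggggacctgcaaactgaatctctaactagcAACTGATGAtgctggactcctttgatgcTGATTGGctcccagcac
H2-DMb1, chr17:34153068-34153144, plus strand: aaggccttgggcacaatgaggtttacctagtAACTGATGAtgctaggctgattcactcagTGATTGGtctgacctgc
H2-DMb2, chr17:34145097-34145173, plus strand: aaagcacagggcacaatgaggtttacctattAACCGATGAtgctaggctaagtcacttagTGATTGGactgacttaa
H2-Oa, chr17:34092274-34092350, plus strand: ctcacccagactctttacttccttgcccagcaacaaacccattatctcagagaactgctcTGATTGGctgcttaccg
H2-Ob, chr17:34238786-34238862, plus strand: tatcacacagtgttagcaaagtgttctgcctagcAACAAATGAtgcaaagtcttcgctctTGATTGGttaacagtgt

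The TGATTGG match began 45 bases before the RefSeq transcript start in H2-Oa, 50 in H2-Aa, 59 in H2-Ob, 61 in H2-Eb1, 63 in H2-DMb1 and 92 in H2-DMb2. In the 4 promoters with both matches, 19 bases lay between them in H2-Eb1, 20 in H2-DMb1 and in H2-DMb2, and 17 in H2-Ob. Among all 32851 promoters of the table, 7.82% held TGATTGG and 2.85% held AACNNATGA. The upstream pattern followed within 5 to 45 bases by TGATTGG was found in 8 promoters (0.0244%). These were the 4 named here and those of Tnfrsf9, Gm34733, BC051142 and Bscl2. As the patterns were written after the class II promoters had been read, the 4 among the 8 are no test. H2-DMb1 and H2-DMb2 are also paralogs with windows that are alike. Neither promoter of H2-DMa in the table held either pattern. The windows of H2-Aa, H2-Eb1 and H2-Ob lie outside the spans of their GENCODE genes. That of H2-DMb2 lies inside the span, that of H2-DMb1 almost wholly inside it, and that of H2-Oa reaches past the gene start, so that these are not upstream of every annotated transcript. These matches are a description of letters and not of factor binding.

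Library totals ran from 32218345 to 55728852 assigned fragments, so that the limit a count of 0 allows (3 counts, covering counting error only) lay between 0.0560 and 0.0938 CPM, that is, counts scaled to a common library size. Of all genes, 15354 had 10 counts or more in at least 3 libraries and were tested, the 10 class II genes among them. The tissue label was met by the endocardial gene Nfatc1 at 116 to 176 CPM and the valve matrix gene Postn at 983 to 1507 CPM, and the cardiac myosin gene Myh6 at 2892 to 11389 CPM showed heart muscle in every library. Libraries stood apart from each other in composition: summed smooth muscle markers were at 13170 CPM in control 2 and 2197 CPM in mutant 1 against 5510 to 5975 CPM in the others, and summed cardiac muscle markers were lowest in control 2 (9112 CPM) and highest in mutant 1 (33994 CPM). Acvr1 itself, whose row does not separate transgene from endogenous gene, stood at 49.1, 60.5 and 67.2 CPM in the controls and 56.5, 57.8 and 49.7 CPM in the mutants. All CPM here are scaled with TMM factors, and values are listed in the order of replicates 1, 2 and 3.

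The classical chains were abundant. H2-Aa stood at 204, 75.9 and 126 CPM in the controls and at 194, 200.4 and 119 CPM in the mutants. H2-Ab1 stood at 366, 116 and 202 CPM in the controls and at 380.4, 331 and 197 CPM in the mutants. H2-Eb1 stood at 168, 64.1 and 106 CPM in the controls and at 161, 151 and 97.8 CPM in the mutants. For each chain control 1, mutant 1 and mutant 2 were high, control 3 and mutant 3 were lower, and control 2 was lowest, so that the groups overlapped. The log2 fold change of mutants against controls was 0.34 for H2-Aa (95% interval -0.53 to 1.21, unadjusted p = 0.385), 0.41 for H2-Ab1 (-0.61 to 1.42, unadjusted p = 0.373) and 0.28 for H2-Eb1 (-0.55 to 1.11, unadjusted p = 0.454), and each adjusted p was 0.999 in edgeR's quasi-likelihood test. In fold terms the interval of H2-Ab1 reached from 0.657 to 2.67, so that this design could not tell a decrease of that size from an increase of that size. Mutant 1 also stood apart in other genes of the H2 region, with 0 counts of H2-Ea-ps, listed for the I-E alpha chain, against 54 to 74 in the other libraries, and the part of sequence differences between outbred mice in the counts of these polymorphic chains was not tested. Without mutant 1 the log2 fold changes were 0.24 for H2-Aa, 0.21 for H2-Ab1 and 0.14 for H2-Eb1, and over all 6 libraries left out in turn they ran from 0.057 to 0.76, from 0.094 to 0.92 and from 0.00088 to 0.68, with the highest values without control 1 and the lowest without control 2. In bulk tissue, fewer cells of a type and less RNA per cell cannot be told apart.

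Cd74, the invariant chain that guides and guards the class II molecule on its way to the endosome, was the most abundant of the 10 and followed the same order. Unlike the chains it serves, it lies on chromosome 18, from 60803848 to 60812652. It stood at 948, 411 and 672 CPM in the controls and at 829, 857 and 636 CPM in the mutants. The 3 mutants lay within the range of the controls. The control mean was 677 ± 269 CPM (SD, n = 3) and the mutant mean was 774 ± 121 CPM (SD, n = 3). The log2 fold change was 0.19 with a standard error of 0.31 (adjusted p = 0.999, edgeR). It was -0.062 without control 2 and 0.52 without control 1.

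**Figure D1:**
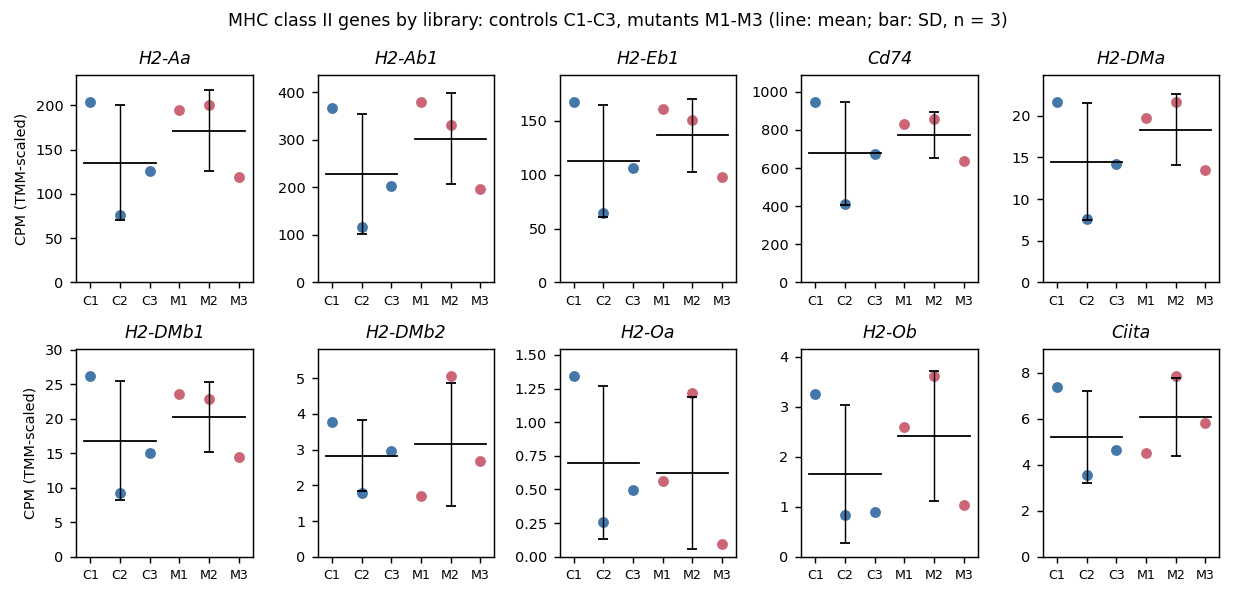
TMM-scaled CPM (vertical axes, each gene on its own scale from 0) of the 10 class II genes in control libraries C1 to C3 (blue) and mutant libraries M1 to M3 (red). Points are libraries, lines are group means and bars are SDs of 3 libraries. In all 10 panels the controls and the mutants overlap, and C2 is the lowest library in 8 panels.

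The catalyst of peptide loading repeated this order in its main pair of chains. H2-DMa stood at 21.7, 7.57 and 14.2 CPM in the controls and at 19.8, 21.7 and 13.5 CPM in the mutants. H2-DMb1 stood at 26.2, 9.25 and 15.1 CPM in the controls and at 23.5, 22.9 and 14.5 CPM in the mutants. Both were again lowest in control 2, with mutant 3 and control 3 next. Their log2 fold changes were 0.34 (standard error 0.37) and 0.27 (standard error 0.38), each with an adjusted p of 0.999 from edgeR. Without control 1 they were 0.75 and 0.74, and without control 2 they were 0.033 and -0.020.

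H2-DMb2, the second beta chain gene of H2-M, did not follow H2-DMb1 in every library. Its values were 3.77, 1.78 and 2.95 CPM in the controls and 1.70, 5.06 and 2.69 CPM in the mutants. Mutant 1 was thus the lowest library for H2-DMb2 and among the 3 highest for H2-DMb1. The paralogs share 369 stretches of 50 bases, which are 27.2% of those in H2-DMb1 transcripts and 21.2% of those in H2-DMb2 transcripts, so that the division of fragments between them is uncertain. The log2 fold change of H2-DMb2 was 0.15 with a standard error of 0.47 (adjusted p = 0.999, edgeR).

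H2-O, the restraint on H2-M, was near the lower end of what the libraries measure. H2-Oa had 72, 13 and 23 counts in the controls and 29, 48 and 3 in the mutants, or 1.34, 0.257 and 0.499 CPM against 0.560, 1.21 and 0.0938 CPM. H2-Ob had 174, 42 and 41 counts in the controls and 135, 143 and 33 in the mutants, or 3.25, 0.830 and 0.889 CPM against 2.61, 3.62 and 1.03 CPM. Control 1 and mutant 2 were the highest libraries for both chains, and the low libraries included members of each group. The log2 fold changes were -0.16 for H2-Oa (standard error 0.92) and 0.55 for H2-Ob (standard error 0.68). The adjusted p was 0.999 in edgeR for each. With 1 library left out they ran from -1.05 to 0.73 for H2-Oa and from 0.14 to 1.49 for H2-Ob. H2-Oa lies within an antisense gene, BC051537, which is listed at 0 in all 6 libraries and shares 21.7% of the 50-base stretches of H2-Oa. The library kit does not mark strand, so that reads from the shared parts cannot be told apart. The span of H2-DMa overlaps Brd2 on the opposite strand, but its protein-coding transcripts share none of their 2807 stretches of 50 bases with another gene.

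Ciita, the coactivator, was measured at 7.41, 3.54 and 4.66 CPM in the controls and at 4.50, 7.87 and 5.82 CPM in the mutants. Control 2 was lowest here as well, but mutant 1, a high library for the classical chains, was the next lowest. The log2 fold change of Ciita was 0.22 with an interval of -0.59 to 1.03 (adjusted p = 0.999, edgeR).

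Over the 10 genes, 9 fold changes were above 0 and 1 was below. Their median was 0.27 on the log2 scale, beside 0.0097 for all genes tested, of which 52.2% were above 0. None of the 10 passed an adjusted p of 0.05, as was the case for 0% of all genes tested, and none had an unadjusted p under 0.05, beside 3.45% of all genes (1.59% higher and 1.86% lower in the mutants). In DESeq2, which called 0.169% of the genes to which it gave an adjusted p (21 higher and 5 lower in the mutants), none of the 10 passed either. For none of the 10 did the groups fail to overlap, beside 8.88% of all genes, made up of 4.06% with every mutant above every control and 4.82% with every mutant below. The median fold change depended on which control was present: it was 0.73 without control 1 and 0.0047 without control 2. Control 1 was the highest control for each of the 10, so that leaving it out raised every fold change. Without it, 3 of the 10 had an unadjusted p under 0.05 in edgeR, beside 1.92% of all genes higher with such a p. These were H2-Ab1 (log2 fold change 0.92), H2-Ob (1.49) and H2-Aa (0.76), each with an adjusted p of 0.949. H2-Aa and H2-Ab1 followed one library pattern and are not separate calls. No class II gene had such a p when any other library was left out.

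**Figure D2:**
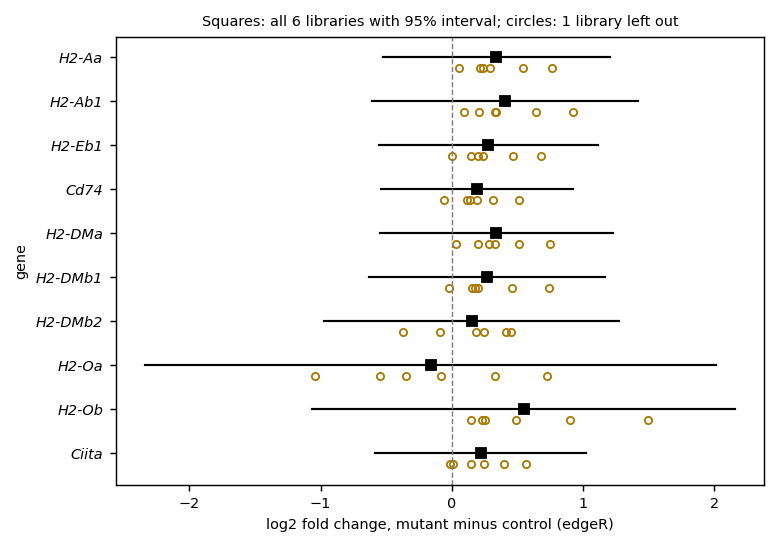
Log2 fold change of mutants against controls (horizontal axis) for each of the 10 genes (rows). Squares with lines are the edgeR estimate from 6 libraries and its 95% interval, open circles are the estimates with 1 library left out, and the dashed line marks 0. All 10 intervals span 0, and the circles of H2-Oa reach from -1.05 to 0.73.

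The spread between libraries was large for these genes. The highest library exceeded the lowest by 2.31-fold for Cd74, 2.69-fold for H2-Aa, 3.27-fold for H2-Ab1 and 14.3-fold for H2-Oa. Among the 3 controls alone the ratio of highest to lowest ran from 2.09 for Ciita to 5.23 for H2-Oa. The SD of log2 CPM over the 6 libraries was 0.44 to 1.26, with a median of 0.58, beside a median of 0.24 over all genes tested. Because low counts vary more, each gene was also set beside the 500 tested genes nearest to it in mean level: 97.6% of these had a smaller SD than H2-Ab1, 97% than H2-Eb1 and 96% than H2-Aa, but only 73.6% than Cd74 and 71.8% than Ciita.

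The spread was shared by 6 of the genes, a core chosen after the values were seen: H2-Aa, H2-Ab1, H2-Eb1, Cd74, H2-DMa and H2-DMb1. In every one of them control 1, mutant 1 and mutant 2 took the 3 highest places, followed by control 3, mutant 3 and control 2. The ratio of H2-Aa to H2-Eb1 CPM, for example, was 1.22, 1.18 and 1.19 in the controls and 1.21, 1.33 and 1.22 in the mutants. This ratio of an I-A to an I-E chain was among the narrowest, at 1.12-fold, while each chain varied more than 2.6-fold. For the I-A partners H2-Aa and H2-Ab1 the ratio ran from 0.511 in mutant 1 to 0.653 in control 2, or 1.28-fold. Over the 15 pairs among the core genes the ratio varied between 1.1-fold and 1.62-fold across libraries, the widest being H2-Ab1 to Cd74. Over the other 30 pairs it varied between 1.69-fold and 11.2-fold. As the core was chosen for its shared pattern, narrower ratios within it follow from the choice and are no test. The genes outside the core also had the lowest counts, down to 3 for H2-Oa, so that counting error weighs more in their ratios. For none of the 45 ratios did the mutants lie apart from the controls.

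**Figure D3:**
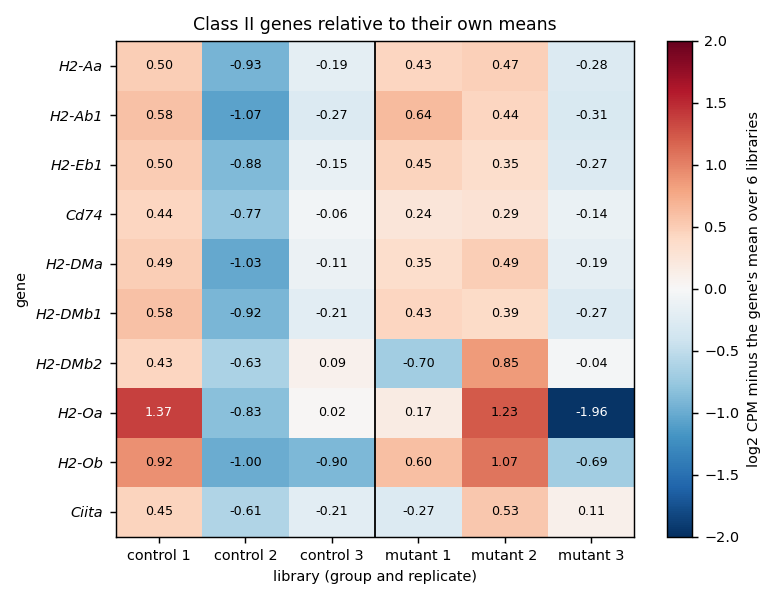
Log2 CPM of each class II gene (rows) minus the mean of that gene over the 6 libraries (columns, controls left of the line and mutants right of it), with colour and printed value giving the same quantity. The upper 6 rows repeat one pattern, with control 2 lowest at -0.77 to -1.07, while H2-DMb2, H2-Oa, H2-Ob and Ciita depart from it in 1 or more libraries.

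Ciita did not separate high from low libraries of the core in the same way. Mutant 1 was 0.27 below the Ciita mean on the log2 scale and 0.24 to 0.64 above the mean of each core gene. Mutant 3 was 0.11 above the Ciita mean and 0.14 to 0.31 below that of the core genes. The Ciita counts of 179 to 397 are enough to measure it, but no test was made of these departures.

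Levels of different genes can be set side by side only per length, here as CPM per kilobase of the union of annotated exons, averaged over the 6 libraries. Cd74 led with 432 ± 115 (SD, n = 6), above 99.4% of the genes tested, followed by H2-Ab1 with 103 ± 42.1, H2-Eb1 with 64.1 ± 21.3 and H2-Aa with 40.4 ± 14.1. H2-DMb1 had 11.04 ± 3.92 and H2-DMa 4.76 ± 1.63, which is near the middle of all genes tested (50.6% were lower). H2-DMb2 followed with 1.71 ± 0.73, Ciita with 0.591 ± 0.18, H2-Oa with 0.470 ± 0.36 and H2-Ob with 0.379 ± 0.24. From Cd74 down to Ciita each neighbour stood in this order in 6 of 6 libraries. Ciita and H2-Oa, and likewise H2-Oa and H2-Ob, stood in it in 4 of 6, so that the order of the lowest 3 did not hold beyond the spread. The place of H2-Aa depends on the length used: per kilobase of its longest protein-coding transcript it stood at 136, above H2-Eb1 at 74.6 in 6 of 6 libraries. By that length H2-Ab1 stood at 219, H2-DMa at 8.19, Ciita at 0.937 and H2-Ob at 0.763, the last then above H2-Oa at 0.608.

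The genes that lie between the class II genes on chromosome 17 varied less. Within the interval 5 other genes were tested, Brd2, Psmb9, Tap1, Psmb8 and Tap2, of which the last 4 serve MHC class I presentation. Their SD of log2 CPM ran from 0.0907 for Tap2 to 0.432 for Tap1, under the 0.436 of Cd74, the lowest of the class II genes. Tap2, of these the nearest to H2-Ob, had 105, 91.2 and 90.5 CPM in the controls and 97.2, 90.3 and 99.7 CPM in the mutants, a range of 1.17-fold. Tap1 was highest in mutant 1 at 46.9 CPM and lay between 20.8 and 26.4 CPM in the other 5 libraries.

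The genes whose profile over the 6 libraries came closest to the mean profile of the class II genes were found by the root mean square difference of centred log2 CPM. They were Nr1d2, a circadian repressor (0.147), Edn3, an endothelin (0.155), Itgb7, a leukocyte integrin chain (0.162), Uts2r, the urotensin receptor (0.172), and Tubb3, a tubulin (0.174). Nr1d2 stood at 66.6, 27.1 and 41.9 CPM in the controls and at 51.6, 60.4 and 40.7 CPM in the mutants. Itgb7 stood at 12.6, 3.76 and 4.99 CPM in the controls and at 8.69, 11.4 and 5.88 CPM in the mutants. Each profile rests on 6 values, and those of 15354 genes were compared. The class II genes themselves differed from their own mean profile by 0.125 for H2-Aa up to 0.754 for H2-Oa.

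The factors that act on class II promoters summed to between 323 and 339 CPM in the 6 libraries. The list held the RFX subunits (Rfx5, Rfxap, Rfxank), the NF-Y subunits (Nfya, Nfyb, Nfyc), Creb1 and the coactivators Crebbp, Ep300 and Kat2b. Of the 10, all tested, 6 fold changes were above 0 and 4 below, with a median of 0.03, and none passed the adjusted threshold. Kat2b, an acetyltransferase, stood at 37.7, 32.1 and 36.0 CPM in the controls and at 40.9, 44.3 and 42.5 CPM in the mutants (log2 fold change 0.27, unadjusted p = 0.0338, adjusted p = 0.999, edgeR). Ep300 stood at 37.6, 39.2 and 36.6 CPM in the controls and at 34.7, 34.1 and 31.5 CPM in the mutants. For these 2 of the 10 genes, 1 in each direction, the groups did not overlap, beside 8.88% of all genes tested. Rfx5, the DNA-binding subunit of RFX, was at 17.9, 15.4 and 16.0 CPM against 16.4, 19.4 and 12.0 CPM and overlapped.

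Of the interferon-gamma pathway that induces Ciita, 10 of 11 genes were tested, 4 with a fold change above 0 and 6 below (median -0.03), and none had an unadjusted p under 0.05. Ifng itself was at or under 0.0933 CPM in every library and was not tested. Irf1, a driver of Ciita, was at 52.8, 54.4 and 47.4 CPM in the controls and at 62.2, 51.1 and 52.3 CPM in the mutants, and the groups overlapped.

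In the endosome, where class II molecules meet their peptides, 10 of the 11 listed processing genes were in the table and tested, 5 with a fold change above 0 and 5 below (median 0.0022). None had an unadjusted p under 0.05. Ctss, the cathepsin that trims the invariant chain, was at 60.4, 47.2 and 63.1 CPM in the controls and at 58.8, 95.3 and 69.8 CPM in the mutants (log2 fold change 0.39, standard error 0.20, unadjusted p = 0.0914). March8, a ubiquitin ligase that removes class II from the surface, had a log2 fold change of -0.19 (unadjusted p = 0.115) and Ctsl, another cathepsin, one of 0.16 (unadjusted p = 0.24). Of the costimulatory genes 7 of 8 were tested, 6 with a fold change above 0, with a median of 0.27. Cd86, which gives T cells their second signal, was at 8.92, 6.41 and 8.09 CPM in the controls and at 9.88, 10.5 and 9.38 CPM in the mutants, and was the 1 gene of the 7 with groups that did not overlap, beside 8.88% of all genes tested (unadjusted p = 0.0916, adjusted p = 0.999, edgeR).

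Class I presentation, which shows peptides from inside the cell on nearly all cells, was highest in mutant 1, with a summed level of 5241 CPM against 3793 to 4128 CPM in the other libraries. Of its 15 genes 12 had a fold change above 0, with a median of 0.15, and none had an unadjusted p under 0.05. H2-T23 was the 1 gene with every mutant above every control, beside 4.06% of all genes tested. It stood at 133.6, 117.7 and 130.7 CPM in the controls and at 150.7, 171.6 and 133.9 CPM in the mutants (unadjusted p = 0.0722, edgeR). H2-D1, a class I heavy chain, stood at 737, 535 and 607 CPM in the controls and at 1186, 769 and 575 CPM in the mutants. Mutant 1 was the highest library for H2-D1, and control 1, which led for most of the class II core, ranked behind mutants 1 and 2. Nlrc5, the class I counterpart of Ciita, was at 3.90, 1.38 and 4.40 CPM against 9.21, 4.27 and 1.22 CPM.

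Markers of the cells that carry class II were set beside these values. Of 13 macrophage markers, all tested, 11 had a fold change above 0 with a median of 0.34, and 6 had an unadjusted p under 0.05 and every mutant above every control (Cd68, Lyz2, C1qa, C1qb, C1qc and Fcgr1), beside 1.59% of all genes tested with such a p and a higher level in the mutants and 4.06% with every mutant above every control. None passed the adjusted threshold. Mertk (log2 fold change -0.57) and Lyve1 (-0.09) were lower in the mutants. For both, and for Csf1r, Emr1, Mrc1, Cd163 and Aif1, the groups overlapped. The 13 markers summed to 1743, 1611 and 1631 CPM in the controls and 2027, 2179.9 and 2177 CPM in the mutants. The groups thus lay apart in a sum whose largest part was Lyz2, at 797, 725 and 746 CPM against 994, 1081 and 1055 CPM. The summed class II level, at 1749.7, 690.2 and 1145 CPM against 1618, 1602 and 1087 CPM, overlapped. Mutant 3 thus had 2177 CPM of macrophage markers with 1087 CPM of class II, and control 1 had 1743 CPM with 1749.7 CPM. Smooth muscle markers had fold changes below 0 in all 5 genes (median -0.88), 1 had an unadjusted p under 0.05 (beside 1.86% of all genes that were lower with such a p), and 3 had every mutant below every control (beside 4.82%).

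Dendritic cell markers differed from each other in which libraries were high. Their sum was 82.3, 60.05 and 53.7 CPM in the controls and 59.7, 71.7 and 48.8 CPM in the mutants, and 2 of the 10 genes had a fold change above 0. Cd209a, which marks a type of class II-rich dendritic cell, was at 6.60, 2.41 and 1.95 CPM in the controls and at 6.02, 2.83 and 1.85 CPM in the mutants, with control 1 and mutant 1 high. Flt3 was at 1.60, 0.356 and 0.238 CPM against 0.521, 1.29 and 0.344 CPM, with control 1 and mutant 2 high. Itgax (4.69 CPM), Zbtb46 (27.5 CPM) and Irf4 (3.06 CPM) were instead highest in control 2, the lowest library for the class II core. Irf8, which with Zbtb46 had the highest counts of the list, was lowest there at 18.8 CPM. It was highest in control 1 (39.7 CPM) and mutant 2 (32.1 CPM). Ccr7 was lowest in control 2 as well (0.237 CPM). Batf3 was highest in mutant 3 (2.66 CPM), and Clec9a was lowest in mutant 1 (0.212 CPM), which was high for the core.

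B cell markers summed to 19.2, 6.82 and 5.75 CPM in the controls and to 7.20, 37.5 and 18.0 CPM in the mutants. Of 8 genes 7 were tested, 6 with a fold change above 0 (median 1.01), and Pax5 was at or near 0 in every library. Mutant 2 and control 1 had the highest sums, as they had the highest H2-Oa and H2-Ob. Red cell markers, which report blood in the tissue, were highest in these libraries too, at 10278, 2780 and 3677 CPM in the controls and 1318, 9052 and 5236 CPM in the mutants. Mutant 3, with the third highest B cell sum, had the lowest H2-Oa of all libraries. Of 4 plasma cell markers tested, Sdc1, Tnfrsf17 and Derl3 had fold changes below 0. The other, Igj, was at 0.578, 0.217 and 0.477 CPM in the controls and at 3.17, 5.92 and 4.03 CPM in the mutants. Its log2 fold change was 3.36 (unadjusted p = 0.000187, adjusted p = 0.999, edgeR), with every mutant above every control. The general leukocyte markers summed to 218, 149 and 193 CPM in the controls and 191, 261 and 208 CPM in the mutants, with control 2 lowest, as for the class II core. All 5 had a fold change above 0 (median 0.25). Cd53, a membrane protein of leukocytes, was at 28.2, 23.4 and 23.2 CPM in the controls and at 33.05, 37.8 and 32.4 CPM in the mutants (log2 fold change 0.47, unadjusted p = 0.00768, adjusted p = 0.999, edgeR), and was the 1 gene of the 5 with such a p or with every mutant above every control. T cell markers, among them Cd4 of the helper T cells that read class II, were at or under 4.17 CPM in every library. Of 8 genes 7 were tested, 6 with a fold change above 0 (median 0.92) and 2, Cd3e and Cd4, with an unadjusted p under 0.05, beside 1.59% of all genes tested that were higher with such a p. Cd3e, a chain of the T cell receptor complex, was at 0.541, 0.613 and 0.390 CPM in the controls and at 0.618, 2.45 and 2.06 CPM in the mutants (unadjusted p = 0.0199, adjusted p = 0.999, edgeR). For Cd3e and for Lck, a kinase of T cell signaling, every mutant lay above every control, beside 4.06% of all genes tested. Cd4 was at 1.72, 0.613 and 0.629 CPM in the controls and at 3.28, 2.96 and 1.60 CPM in the mutants (unadjusted p = 0.0329, adjusted p = 0.999, edgeR), with control 1 above mutant 3. The part of these cell types in the class II values was not tested.

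**Figure D4:**
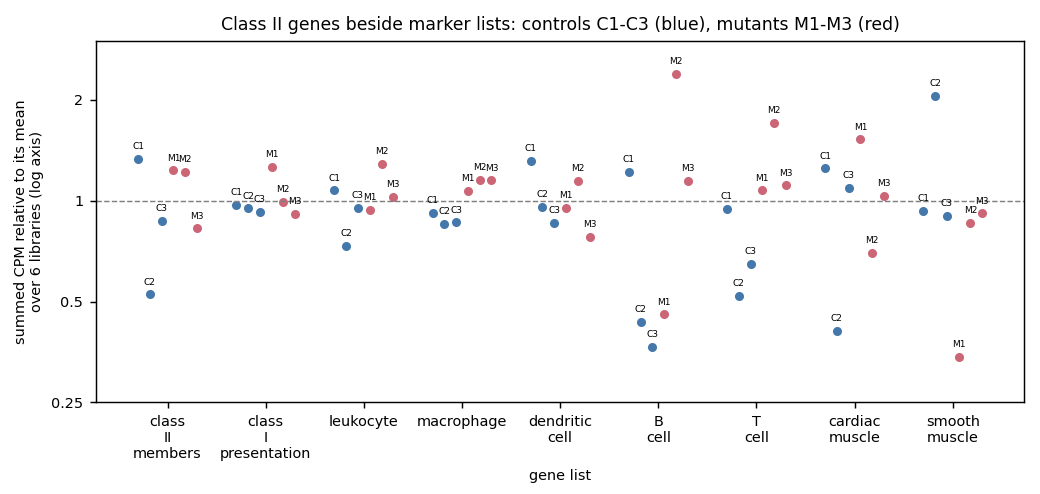
Summed CPM of the class II genes and of 8 other gene lists (horizontal axis) in each library, divided by the mean of that list over the 6 libraries (log2-spaced axis), with controls C1 to C3 in blue and mutants M1 to M3 in red. The macrophage marker sums of the mutants all lie above those of the controls. The class II genes reach from 0.525 in C2 to 1.33 in C1, with mutants between 0.826 and 1.23.

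Levels of a pair of sex-linked genes, picked after their values were seen, also differed between the libraries. Xist, which female cells use to silence an X chromosome, was at 54.5, 0.297 and 0.629 CPM in the controls and at 59.1, 19.7 and 11.6 CPM in the mutants, so that the 3 libraries with the highest core levels were the 3 with the highest Xist. Ddx3y, on the Y chromosome, was at 0.261, 104 and 98.7 CPM against 0.347, 76.9 and 87.5 CPM, and was thus high in the 3 libraries with the lowest core levels and in mutant 2. Control 1 and mutant 1 were high in Xist and at or under 18 counts of Ddx3y, and mutant 2 and mutant 3 held both transcripts, while the number of mice in a library is not stated. The part of sex in the class II values was not tested.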

How the data were processed

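RNA-Seq was performed on 3 control and 3 mutant aortic valve samples. The authors deposited estimated counts per gene, the fragments that Cuffdiff assigned, not scaled for library size. The submitters' processing notes name FastQC, TopHat2 2.0.13, Bowtie2 2.2.1, Cufflinks and Cuffdiff 2.1.1 with mm10. Between 1.66% and 1.87% of values per library were not whole and were rounded. Of all symbols, 97.8% were matched to GENCODE vM21 (GRCm38), which gave positions and lengths. Genes with a count of 10 or more in at least 3 libraries were tested in R 4.3.3 with edgeR 4.0.16 (TMM, quasi-likelihood F test, two-sided), with Benjamini-Hochberg adjustment over all 15354 and a threshold of 0.05. The biological coefficient of variation was 0.278. Each standard error is the absolute log2 fold change divided by the root of F. Centred log2 CPM used a prior count of 2. An exact permutation test cannot give a two-sided p under 0.1 here. No 2 libraries were duplicates.

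The class II genes and the other lists were chosen with earlier results of these data known. Named genes are the 10 class II genes, in other lists up to 3 genes with the smallest p plus genes that define a cell type, and the 5 with the most similar profile. Others were chosen after their values were seen. Some genes of these lists are not reported here. Alternatives were DESeq2 1.42.0, limma-voom (limma 3.58.1), RLE and upper-quartile factors, no filter, a mean count of at least 100, a replicate block, a prior count of 0.5, other gene lengths and leaving out each library. The scripts were tested on simulated data.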

Additional observations from a re-analysis of the deposited data

How the results depend on the processing

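Across 13 alternative fits, 121 of 128 fold changes of class II genes kept their direction, and the lowest adjusted p of any of them was 0.901. The 7 that reversed all came from leaving out 1 library: H2-Oa 0.73 without control 1 and 0.33 without mutant 3, Cd74 -0.062, H2-DMb1 -0.020 and H2-DMb2 -0.091 without control 2, and H2-DMb2 -0.37 and Ciita -0.013 without mutant 2. The cause was not tested. At the other end, with 1 library left out, these reached 0.52 for Cd74, 0.74 for H2-DMb1, 0.45 for H2-DMb2, 0.56 for Ciita and -1.05 for H2-Oa. The median class II fold change ran from 0.0047 to 0.73 over the fits with 1 library left out and from 0.27 to 0.37 over the others. The number of genes called was 0 in edgeR (529 at an unadjusted p under 0.05) and 26 in DESeq2 (21 higher and 5 lower in the mutants), none of them a class II gene, and 0 in every other fit. Per kilobase of the longest annotated or the longest protein-coding transcript, levels were 219 for H2-Ab1, 8.19 for H2-DMa, 0.763 for H2-Ob and 0.937 for Ciita, and 136 for H2-Aa by the protein-coding one, which was chosen after seeing the data. These lengths are shorter than the exon unions.

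Whether replicate numbers pair the samples was not decided, because a few correlations among 6 libraries of differing composition cannot settle it. Deviations of same-numbered libraries correlated at 0.289, 0.0822 and 0.0313. Controls 1 and 3 correlated best with the mutant of their number, but control 2 correlated best with mutant 3 (0.2). With the replicate block in edgeR, 0 genes were called, and 814 had an unadjusted p under 0.05, beside 529 without the block. The median class II fold change was then 0.35, and H2-Ab1 stood at 0.50. Depth limits H2-Oa most, with 3 counts in mutant 3.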

Other observations

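Other genes of the H2 region set mutant 1 apart from the other libraries. They were chosen after their values were seen and stand here as counts, with no test. H2-Ea-ps, listed for the I-E alpha chain, had 74, 63 and 54 counts in the controls and 0, 59 and 59 in the mutants, and H2-Eb2, a further class II beta chain, was at or under 0.344 CPM in every library. The class I genes H2-Q1, H2-Q2 and H2-Bl had 1, 13 and 9 counts in mutant 1 and at least 45, 183 and 30 in each other library. H2-Q6, H2-Q8 and H2-Q9 had 1318, 327 and 698 counts in mutant 1 and at most 408, 117 and 329 elsewhere. The mice are labelled outbred, and near-identical H2 genes can share reads, so that these counts cannot be assigned to a gene with confidence. H2-Eb1, the partner chain of the I-E alpha chain, was at 161 CPM in mutant 1.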
